A study of Homo sapiens and Mus musculus with 213 samples.

Results

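The potassium channel genes described here are the 96 protein-coding genes whose GENCODE symbol starts with KCN, among 58336 genes listed in the RNA-seq tables. They were picked by symbol, with earlier results of these data known, and sorted into 6 classes by subfamily. RNA was measured in HEK293T, an immortalized human embryonic kidney line, with 3 libraries for each of 3 lines. MYC WT cells are unedited. MYC MUT cells carry CRISPR-introduced point mutations in every G-run of the G-quadruplex (G4) at the MYC promoter, so that it cannot fold, and SWP cells carry a different G4-forming sequence in its place. A G4 is a 4-stranded DNA structure that forms where runs of guanine lie close together. The edited lines are homozygous clones, and which clone gave the RNA is not stated in the sources used here, so the edit and clonal differences cannot be told apart. Sample titles number the 3 libraries of a line as Bio replicates, where some other assays number Tech replicates as well. The labels do not say whether they came from separate cultures, and the p-values measure only the spread between these libraries.

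Potassium channels let potassium ions leave or enter the cell and set its resting voltage. Voltage-gated (Kv) channels are built from 4 pore-forming subunits, open when the membrane depolarizes and end action potentials. Kv modifier subunits form no channel of their own and join Kv2 subunits, and accessory subunits bind the pore from outside or from the cytoplasm. Inward rectifiers and 2-pore channels conduct near rest, and calcium- or sodium-activated channels open when these ions rise inside the cell. Many KCN genes are best known from neurons and heart muscle, and embryonic kidney lines are used to express them from plasmids because their own potassium currents are small.

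The unit is the normalized count, a gene's reads after division by the size factor of its library. Levels of different genes are compared only as normalized counts per kb of annotated exon. Gene coordinates are those of GENCODE on hg38. A gene was tested where its mean over the 9 libraries was at least 10. Fold changes are differences on the log2(normalized count + 1) scale with their standard error (SE), and they understate the change of low genes. A member was called higher or lower at an adjusted p under 0.05 (limma, Benjamini-Hochberg over the 20884 tested genes) and a log2 fold change beyond 0.5. For 3 libraries against 3, an exact permutation test of 1 gene cannot give a p below 0.1.

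Of the 96 members, 53 were tested and 43 were not. No read was counted on 7 of the untested members, 24 (these included) had at most 3 reads in every library, and 19 had more. The tested members include 9 whose mean was under 10 in at least 1 line. Of these, 6 (KCNA1, KCNA4, KCNH1, KCNJ10, KCNK2 and KCNV1) passed the minimum through MYC MUT alone, so that their difference from the other lines was built into the choice. Counts over the tested members are therefore a description and cover these 53 genes and not the family.

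MYC itself had 20020 to 28396 normalized counts in MYC WT, 10693 to 12400 in MYC MUT and 14480 to 25245 in SWP. The libraries held 65024354 to 98497026 reads on genes. Markers of the line were present, with summed levels of 8 HEK293T markers between 72835 and 95295, and summed levels of 3 blood markers were between 0 and 1.94. The summed level of 6 neuronal markers was 695 to 892 in MYC WT, 1365 to 1456 in MYC MUT and 832 to 864 in SWP, with STMN2 under 3 normalized counts on average in each line. Of the 5 tested, 4 were called higher in MYC MUT against MYC WT, SNAP25 with a log2 fold change of 4.83. The summed level of 4 fibroblast markers was 1107 to 1329, 1949 to 2079 and 795 to 1245 in the same order, nearly all of it from COL1A1. That of 3 astrocyte markers was 3458 to 6068, 2826 to 2942 and 3565 to 4576, nearly all from SLC1A3. The part of these markers in the channel results was not tested. A sequencing pool is named in the column headers of MYC WT and in no header of the edited lines, so pool and edit cannot be told apart in comparisons with MYC WT. In bulk RNA, fewer cells of a type and less RNA per cell cannot be told apart.

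In MYC WT, inward rectifiers and a silent modifier stood highest per kb. KCNJ8, a pore subunit of ATP-sensitive channels, had 569 ± 84.6 (SD, n = 3) normalized counts per kb. KCNJ2, the strong inward rectifier Kir2.1, had 532 ± 52.0 (SD, n = 3) and KCNG1, which modifies Kv2 channels, 474 ± 25.0 (SD, n = 3). The spreads of these levels overlap, so KCNJ8 and KCNJ2 are not ordered by them. KCNK1, a 2-pore channel of weak conductance, followed with 238 ± 11.3 (SD, n = 3) and KCNJ12, the inward rectifier Kir2.2, with 223 ± 31.2 (SD, n = 3). KCNJ12 has near-identical copies, among them KCNJ18, on which no library had more than 1 read, so its level may include reads from copies. The 5 highest members of a library made up 50.9 to 52.6% of the summed KCN level per kb in MYC WT, 46.4 to 47.0% in MYC MUT and 48.8 to 50.2% in SWP. A mean of at least 10 normalized counts was reached by 49 members in MYC WT, 55 in MYC MUT and 45 in SWP.

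**Figure D1:**
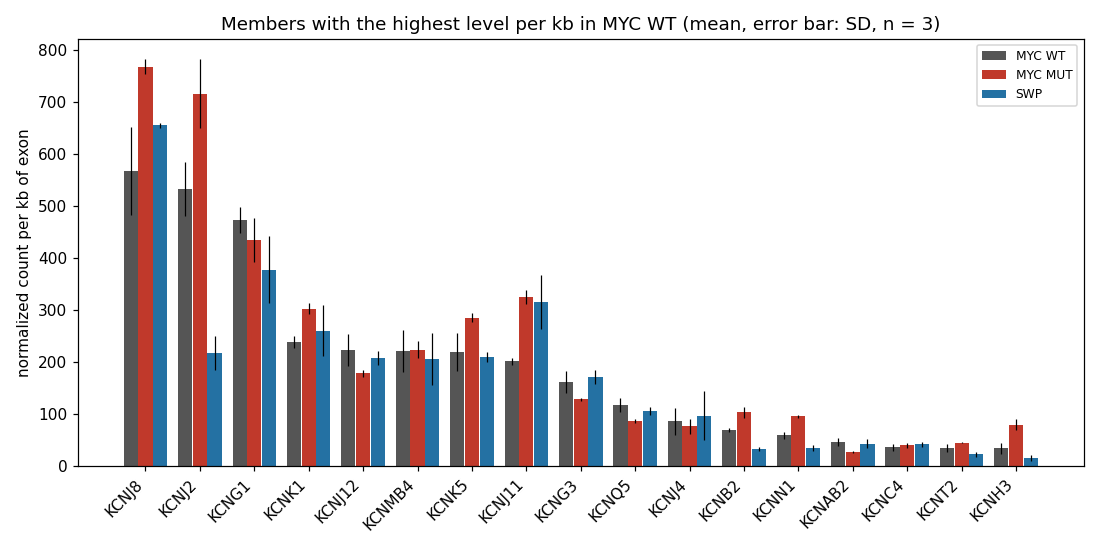
Normalized counts per kb of exon for 17 of the 20 members with the highest level in MYC WT, as the mean of 3 libraries with an SD error bar, in MYC WT (grey), MYC MUT (red) and SWP (blue). KCNJ8 (569 per kb) and KCNJ2 (532 per kb) lead in MYC WT. KCNJ2 is at 217 per kb in SWP.

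Disrupting the MYC G4 was accompanied by higher levels of many channel genes. In MYC MUT against MYC WT, 26 of the 53 tested members were called higher and 2 lower. Over all tested genes 11.3% were called higher and 10.1% lower. Of the 26, 6 are the members that passed the minimum through MYC MUT alone, and among the other 47 tested members 20 were called higher and 2 lower. The median log2 fold change of the tested members was 0.58, where that of all tested genes was -0.0034, and 0.44 over the 47. By class the higher calls were 15 of 22 tested Kv pore-forming genes, 3 of 5 modifiers, 2 of 8 inward rectifiers, 3 of 6 2-pore genes and 3 of 7 calcium- or sodium-activated genes. Without the members that passed through MYC MUT alone they were 12 of 19, 2 of 4, 1 of 7, 2 of 5 and 3 of 7, and the share of inward rectifiers is then near that of all tested genes. No accessory subunit of 5 tested was called higher and 1 was called lower.

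**Figure D2:**
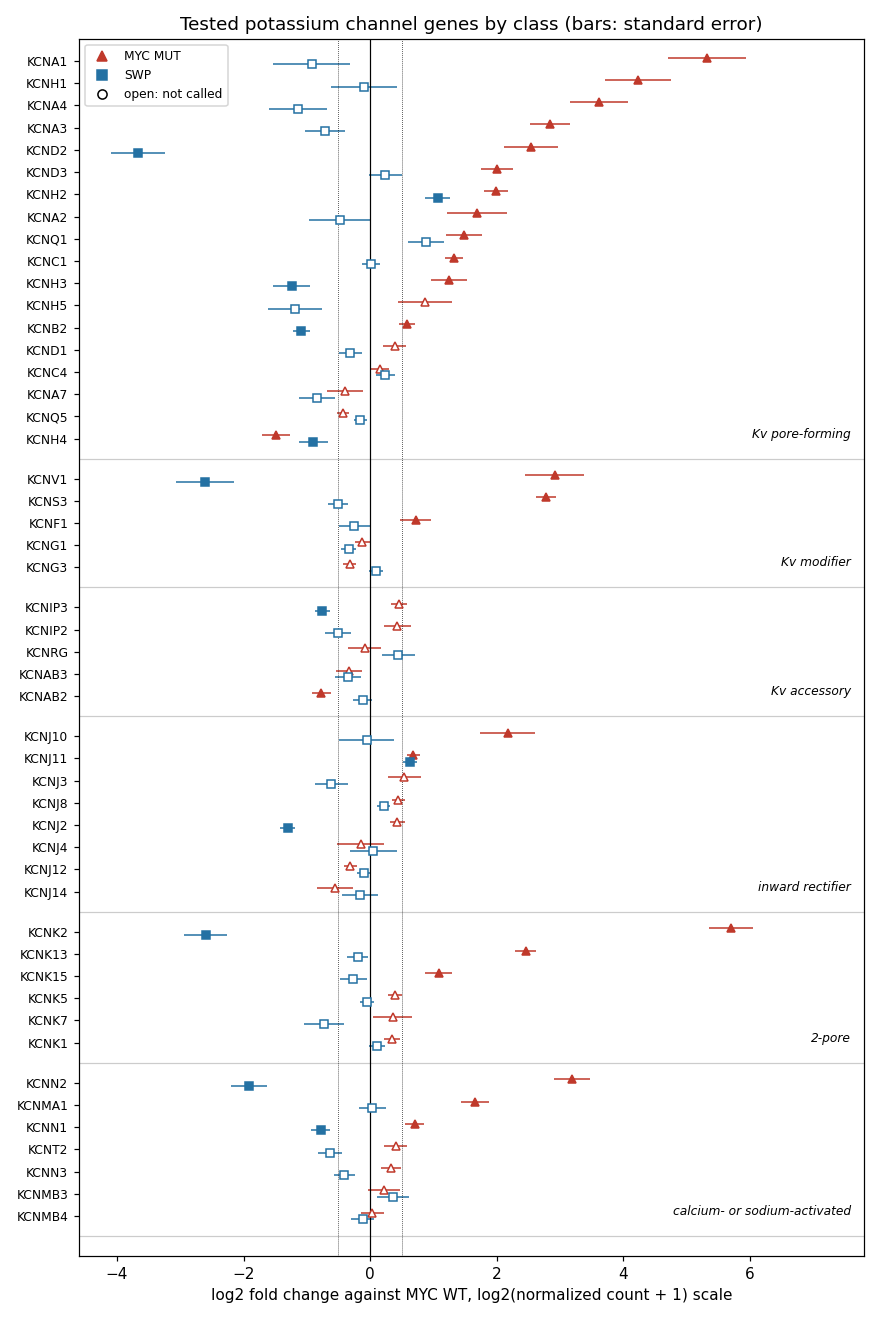
Log2 fold change against MYC WT of 49 of the 53 tested members, by class, for MYC MUT (red triangles) and SWP (blue squares), with the standard error as a bar, filled where called and open where not. Dotted lines mark a log2 fold change of 0.5 in either direction. Of the members shown, 23 filled points lie to the right and 2 to the left in MYC MUT, and 2 lie to the right and 10 to the left in SWP.

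Among pore-forming Kv genes, the shaker-type KCNA genes include members that were near 0 in MYC WT. KCNA3 (ENSG00000177272, chr1:110653560-110674940, minus strand), the Kv1.3 channel known from T cells and neurons, had 21.5, 32.6 and 20.2 normalized counts in MYC WT and 163, 191 and 189 in MYC MUT. The groups do not overlap, and the log2 fold change was 2.85 (SE 0.32, limma adjusted p = 5.41e-05). KCNA2, the axonal Kv1.2 channel, had 22.6, 44.9 and 46.2 in MYC WT and 93.4, 124 and 144 in MYC MUT. Its libraries varied within both lines without overlap, and the log2 fold change was 1.69 (SE 0.48, limma adjusted p = 0.0169). That call was lost without MYC MUT replicate 2 (limma adjusted p = 0.0513) or MYC MUT replicate 3 (limma adjusted p = 0.0616), over a range of 0.000287 to 0.0616 in all settings tried.

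KCNA1, the Kv1.1 channel mutated in episodic ataxia, had 0, 5.61 and 2.89 normalized counts in MYC WT and 83.2, 145 and 134 in MYC MUT. The MYC WT libraries hold at most 5 reads each, 568 of its exon bases are shared with another gene on its own strand, and the log2 fold change was 5.33 (SE 0.61, limma adjusted p = 6.64e-05). KCNA4, a rapidly inactivating Kv1 channel, had at most 3 reads in each MYC WT library and 32.4 to 38.9 normalized counts in MYC MUT, which makes it at least 11.4-fold higher, taking 3 reads in each MYC WT library as the floor. KCNA1 and KCNA4 passed the minimum through MYC MUT alone, so their rises were built into the choice. KCNA7, the other tested member of the subfamily, had a log2 fold change of -0.40 (SE 0.29, limma adjusted p = 0.295).

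The Kv4 channel genes KCND2 and KCND3 encode subunits of the rapidly inactivating A-type current. KCND3 (ENSG00000171385, chr1:111770662-111989668, minus strand) had 34.9, 64.0 and 59.7 normalized counts in MYC WT and 160, 214 and 264 in MYC MUT. The lowest MYC MUT library was well above the highest MYC WT library, and the log2 fold change was 2.01 (SE 0.26, limma adjusted p = 0.000143). Its exons share 1036 bases with DDX20 on the opposite strand, for which the log2 fold change was -0.15 (limma adjusted p = 0.225). Whether the counting used strand is not stated in the sources used here. KCND2 had 14.4, 21.3 and 18.3 in MYC WT and 103, 126 and 98.4 in MYC MUT, with a log2 fold change of 2.54 (SE 0.42, limma adjusted p = 0.000782). KCND1 had a log2 fold change of 0.39 (SE 0.18, limma adjusted p = 0.111) and its groups overlap.

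The ether-a-go-go genes (KCNH) moved in both directions. KCNH2 (ENSG00000055118, chr7:150944961-150978321, minus strand), the hERG channel that repolarizes the heart, had 205, 201 and 181 normalized counts in MYC WT and 735, 826 and 787 in MYC MUT. The libraries of each line lay close together and far apart between lines, with a log2 fold change of 2.00 (SE 0.19, limma adjusted p = 2.01e-05). KCNH1 had at most 1 read in each MYC WT library and 26.2 to 32.1 normalized counts in MYC MUT, at least 9.33-fold higher. Exons of KCNH1 share 3618 bases with a gene on the opposite strand and 2405 with genes on its own. KCNH1 passed the minimum through MYC MUT alone. KCNH3 rose by 1.25 (SE 0.29, limma adjusted p = 0.00563). KCNH4, a relative found mainly in brain, fell from 69.7, 77.4 and 75.1 in MYC WT to 20.3, 26.2 and 32.1 in MYC MUT, which is -1.48 on the log2 scale (SE 0.23, limma adjusted p = 0.00045). It is the only pore-forming member of the 22 tested that was called lower.

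KCNQ genes carry slow, non-inactivating currents. KCNQ1 (ENSG00000053918, chr11:2444654-2849105, plus strand), the slow cardiac repolarizing channel, had 25.6, 55.0 and 36.6 normalized counts in MYC WT and 102, 112 and 104 in MYC MUT. The MYC MUT libraries lay together above a wider MYC WT group, with a log2 fold change of 1.48 (SE 0.28, limma adjusted p = 0.00187). Its exons share 177 bases with KCNQ1OT1 and KCNQ1-AS1 on the opposite strand. KCNQ5 had a log2 fold change of -0.43 (SE 0.10, limma adjusted p = 0.00602), inside the fold threshold.

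Kv3 genes let neurons fire at high rates. KCNC1 had 423, 551 and 495 normalized counts in MYC WT, 1062, 1207 and 1431 in MYC MUT and 508, 414 and 565 in SWP. Only the MYC MUT libraries stand apart. The log2 fold change of MYC MUT against MYC WT was 1.33 (SE 0.15, limma adjusted p = 5.42e-05). KCNC4 had a log2 fold change of 0.16 (SE 0.15, limma adjusted p = 0.415) and KCNC2 had at most 1 read in any library.

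Of the modifiers, KCNS3 (Kv9.3, ENSG00000170745, chr2:17877847-18361616, plus strand) rose most among those with a mean of at least 50. It had 50.2, 42.7 and 47.2 normalized counts in MYC WT and 318, 314 and 351 in MYC MUT, so that both groups were tight and did not overlap. The log2 fold change was 2.79 (SE 0.16, limma adjusted p = 7.09e-07), and the 25 tested genes within 5 Mb had a median of 0.13. KCNV1, 553 of whose exon bases are shared with a gene on the opposite strand, had 7.18, 12.3 and 5.78 in MYC WT and 66.6, 65.1 and 70.1 in MYC MUT, with a difference of 2.92 on the log2 scale (SE 0.46, limma adjusted p = 0.00056). KCNV1 passed the minimum through MYC MUT alone. KCNF1 rose by 0.72 (SE 0.24, limma adjusted p = 0.0355). KCNG1, the most abundant modifier per kb, had a log2 fold change of -0.13 (SE 0.12, limma adjusted p = 0.433), with a 95% interval from -0.39 to 0.14.

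Among accessory subunits, KCNAB2 (ENSG00000069424, chr1:5990927-6101193, plus strand), a cytoplasmic beta subunit of Kv1 channels, was called lower. It had 699, 937 and 758 normalized counts in MYC WT and 436, 485 and 473 in MYC MUT. All MYC MUT libraries lay below all MYC WT libraries, with a log2 fold change of -0.77 (SE 0.15, limma adjusted p = 0.00238). The 140 tested genes within 5 Mb of it had a median of -0.38, and 212 of its exon bases are shared with NPHP4 on the opposite strand. KCNIP3, a calcium-binding partner of Kv4 channels, had a log2 fold change of 0.46 (SE 0.12, limma adjusted p = 0.0124), inside the fold threshold. None of the KCNE genes reached the minimum.

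Of the 8 tested inward rectifiers, 2 were called higher. KCNJ11, the pore subunit of the pancreatic ATP-sensitive channel, rose by 0.69 (SE 0.11, limma adjusted p = 0.000557), and KCNJ10, known from glia and kidney, rose from 7.08 ± 3.15 to 34.4 ± 8.07 normalized counts (SD, n = 3 each) (log2 fold change 2.17, SE 0.43, limma adjusted p = 0.00239). KCNJ10 passed the minimum through MYC MUT alone. The 2 leaders in level stayed within the fold threshold. KCNJ8 had a log2 fold change of 0.44 (SE 0.10, limma adjusted p = 0.00489) and KCNJ2 of 0.43 (SE 0.12, limma adjusted p = 0.0157), and no library of one line overlapped the other for either gene. With values rescaled to equal totals both passed it (0.52 and 0.50).

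The 2-pore channel KCNK2 (TREK-1, ENSG00000082482, chr1:215005775-215237090, plus strand), a mechanosensitive background channel of neurons, had the largest fitted rise of the members. It had 7.18, 6.73 and 7.70 normalized counts in MYC WT and 410, 412 and 460 in MYC MUT. The MYC WT libraries lie near the floor and those of MYC MUT far above it, with a log2 fold change of 5.71 (SE 0.34, limma adjusted p = 9.35e-07). KCNK2 passed the minimum through MYC MUT alone, so its rise was built into the choice. The 56 tested genes within 5 Mb had a median of 0.0038. KCNK13 (THIK-1), best known from microglia, had 54.3, 46.0 and 64.5 in MYC WT and 293, 314 and 307 in MYC MUT. Its groups are far apart, with a log2 fold change of 2.46 (SE 0.16, limma adjusted p = 1.92e-06). KCNK15 rose by 1.08 (SE 0.21, limma adjusted p = 0.00213). It lies on chromosome 20 beside genes with a median of 0.38, and 563 of its exon bases are shared with KCNK15-AS1 and RIMS4 on the opposite strand. KCNK1 and KCNK5 had log2 fold changes of 0.35 and 0.39, inside the fold threshold.

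Of 3 tested small-conductance (KCNN) genes, 2 were called higher, as was KCNMA1. KCNN2 (SK2, ENSG00000080709, chr5:114055926-114496500, plus strand), which follows action potentials with a slow hyperpolarization, had 43.1, 32.6 and 36.6 normalized counts in MYC WT and 329, 356 and 360 in MYC MUT. The libraries of both lines were tight, with a log2 fold change of 3.19 (SE 0.28, limma adjusted p = 1.07e-05). KCNMA1, the pore of the large-conductance BK channel, rose by 1.66 (SE 0.22, limma adjusted p = 0.000163), and 419 of its exon bases are shared with KCNMA1-AS1. KCNN1 (SK1) rose by 0.71 (SE 0.15, limma adjusted p = 0.00354), and KCNN3 (SK3) had a log2 fold change of 0.33 (SE 0.16, limma adjusted p = 0.135). The BK accessory gene KCNMB4 had a log2 fold change of 0.03 (SE 0.18, limma adjusted p = 0.902), with a 95% interval from -0.36 to 0.43.

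**Figure D3:**
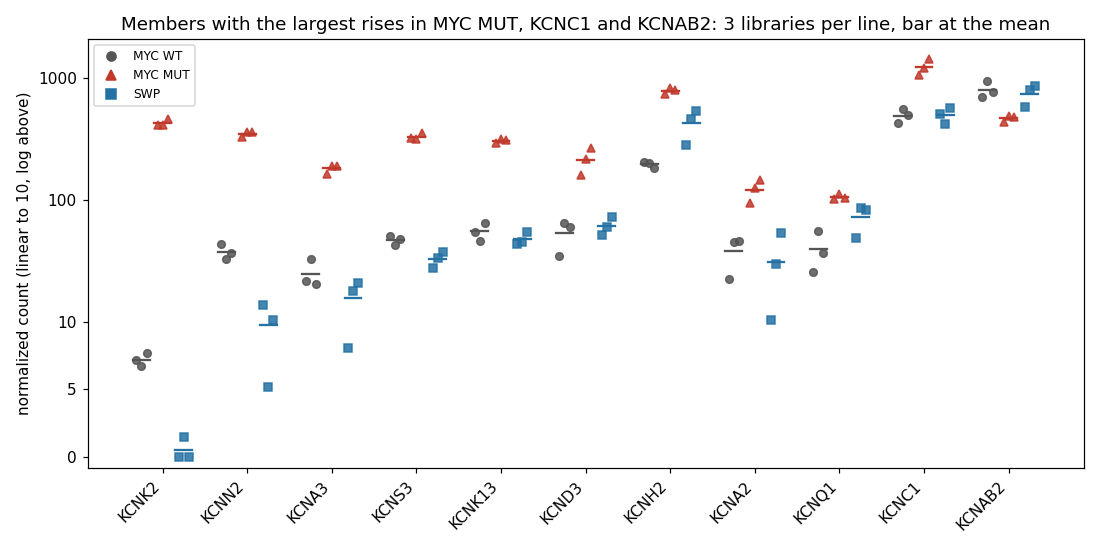
Normalized counts in each of the 9 libraries for 9 of the 10 members with the largest rises in MYC MUT and a mean of at least 50, with KCNC1 and KCNAB2, in MYC WT (grey circles), MYC MUT (red triangles) and SWP (blue squares). The axis is linear to 10 and logarithmic above, and a bar marks the mean of 3 libraries. KCNK2 goes from 7.20 in MYC WT to 427 in MYC MUT, and KCNAB2 is the member shown that is lower in MYC MUT (465 against 798).

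Since the edit concerns a G4, promoters of a few members were read to show what sequence lies at their starts. RefSeq promoter windows (GRCh38.p14, 250 bases before to 50 after each start) matched 72 of the 96 members, with 110 windows. A G4 motif was searched as 4 runs of at least 3 G separated by 1 to 7 bases, on both strands, and the E-box bound by MYC as CACGTG, which reads the same on both strands. The G4 motif was in 48 of the 110 windows (43.6%) and in 25.0% of all 35116 windows. CACGTG was in 8 (7.27%) and in 7.26% of all windows. As fewer than 80% of the members have a window, a comparison of the members with other genes on these shares is void. KCNK2, KCNN2 and KCNS3 are shown because they rose most among matched members of 3 classes, KCNC1 as the Kv3 gene with values in full, and KCNJ2 as the member that fell most in absolute level in SWP. Capitals mark matches to the G4 motif on either strand, and CACGTG is in none of them.
KCNK2, first start (chr1:215005292-215005591, plus strand): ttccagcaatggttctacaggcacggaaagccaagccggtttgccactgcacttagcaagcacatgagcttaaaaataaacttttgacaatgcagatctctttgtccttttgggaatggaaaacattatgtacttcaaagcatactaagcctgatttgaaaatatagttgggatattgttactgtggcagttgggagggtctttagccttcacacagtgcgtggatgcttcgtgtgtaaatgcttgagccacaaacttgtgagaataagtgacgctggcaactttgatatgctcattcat
KCNK2, second start (chr1:215082487-215082786, plus strand): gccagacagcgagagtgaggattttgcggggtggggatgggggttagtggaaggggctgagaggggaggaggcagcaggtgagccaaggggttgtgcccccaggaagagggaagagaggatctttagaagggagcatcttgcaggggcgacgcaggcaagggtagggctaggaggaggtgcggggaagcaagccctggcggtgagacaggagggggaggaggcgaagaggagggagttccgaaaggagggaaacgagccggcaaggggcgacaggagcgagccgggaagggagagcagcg
KCNN2 (chr5:114361820-114362119, plus strand): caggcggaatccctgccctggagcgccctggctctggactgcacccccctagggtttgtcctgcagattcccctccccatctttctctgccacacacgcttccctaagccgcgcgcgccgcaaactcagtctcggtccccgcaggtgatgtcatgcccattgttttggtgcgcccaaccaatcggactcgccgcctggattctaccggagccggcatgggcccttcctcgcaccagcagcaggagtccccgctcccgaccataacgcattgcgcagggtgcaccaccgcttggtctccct
KCNS3, first start (chr2:17877597-17877896, plus strand): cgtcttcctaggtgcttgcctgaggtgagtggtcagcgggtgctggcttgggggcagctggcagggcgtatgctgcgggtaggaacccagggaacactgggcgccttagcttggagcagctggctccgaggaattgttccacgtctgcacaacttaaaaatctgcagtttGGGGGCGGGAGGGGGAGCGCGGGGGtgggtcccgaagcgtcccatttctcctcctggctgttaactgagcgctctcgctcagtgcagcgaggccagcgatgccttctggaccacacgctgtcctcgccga
KCNS3, second start (chr2:17878417-17878716, plus strand): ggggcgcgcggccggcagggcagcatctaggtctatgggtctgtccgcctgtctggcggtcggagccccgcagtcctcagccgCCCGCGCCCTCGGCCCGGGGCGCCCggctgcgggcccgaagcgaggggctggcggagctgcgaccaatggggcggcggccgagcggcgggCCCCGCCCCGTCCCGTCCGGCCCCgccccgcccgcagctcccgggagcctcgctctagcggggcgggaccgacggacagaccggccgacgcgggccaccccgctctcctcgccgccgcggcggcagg
KCNC1, first start (chr11:17734531-17734830, plus strand): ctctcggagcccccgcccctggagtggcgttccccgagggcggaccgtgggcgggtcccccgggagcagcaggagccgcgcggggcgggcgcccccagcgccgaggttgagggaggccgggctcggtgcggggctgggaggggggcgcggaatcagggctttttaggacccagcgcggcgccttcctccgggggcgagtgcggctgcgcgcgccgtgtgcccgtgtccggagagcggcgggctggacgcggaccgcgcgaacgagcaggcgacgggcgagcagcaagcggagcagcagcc
KCNC1, second start (chr11:17735698-17735997, plus strand): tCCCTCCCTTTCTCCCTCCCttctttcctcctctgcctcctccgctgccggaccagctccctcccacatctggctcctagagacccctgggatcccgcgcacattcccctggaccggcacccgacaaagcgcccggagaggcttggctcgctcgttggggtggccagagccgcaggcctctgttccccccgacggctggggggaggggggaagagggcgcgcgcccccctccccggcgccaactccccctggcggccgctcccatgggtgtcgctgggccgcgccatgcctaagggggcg
KCNJ2 (chr17:70169282-70169581, plus strand): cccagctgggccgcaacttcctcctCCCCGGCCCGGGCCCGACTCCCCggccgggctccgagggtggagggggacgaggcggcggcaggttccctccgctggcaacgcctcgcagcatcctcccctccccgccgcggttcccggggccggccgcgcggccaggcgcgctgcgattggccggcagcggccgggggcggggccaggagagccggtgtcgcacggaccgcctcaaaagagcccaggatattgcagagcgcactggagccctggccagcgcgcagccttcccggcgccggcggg

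The windows of KCNK2 and KCNN2, both of which rose, hold no match. The first KCNS3 window holds 1 match on the gene's own strand from base 171 to 195 of 300, and the second holds 2 on the other strand. The second KCNC1 window and the KCNJ2 window hold 1 each, on the other strand. A match is a description of the letters, and folding or binding at these promoters was not analysed here.

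Fewer members were called in SWP than in MYC MUT, and most of them were lower. In SWP against MYC WT, 3 of the 53 tested members were called higher and 10 lower, where 2.15% of all tested genes were called higher and 2.98% lower. The median log2 fold change of the tested members was -0.26 and that of all tested genes -0.055. Pairing of MYC WT and SWP libraries by number is not settled. With the replicate number as a block, 5 more members passed. These were KCNQ1 (0.88, limma adjusted p = 0.00864) among the higher, and KCNH5, KCNJ3, KCNS3 and KCNT2 among the lower (limma adjusted p from 0.007 to 0.0368). Both comparisons with MYC WT use the same 3 MYC WT libraries, so their values are given side by side and the lines are compared directly further on.

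The fall of largest absolute size was that of KCNJ2 (ENSG00000123700, chr17:70168673-70180044, plus strand). It had 2659, 3234 and 3014 normalized counts in MYC WT, 1000, 1329 and 1303 in SWP and 3571, 4184 and 4235 in MYC MUT. The SWP libraries lay far below the others, and the log2 fold change against MYC WT was -1.30 (SE 0.12, limma adjusted p = 5.34e-05). The 77 tested genes within 5 Mb had a median of -0.12, and 185 of its exon bases are shared with KCNJ2-AS1. KCNJ16, its neighbour on chromosome 17, was below the minimum, at 5.13, 5.61 and 14.4 normalized counts in MYC WT and at most 3 reads in each SWP library.

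KCNK2 and KCNN2 were lower in SWP, opposite to MYC MUT. KCNK2 had 0, 1.49 and 0 normalized counts in SWP, at least 2.37-fold below MYC WT (limma adjusted p = 0.000732), with 3 reads a library as the floor. KCNN2 had 13.7, 5.20 and 10.4, below all MYC WT libraries, with a log2 fold change of -1.91 (SE 0.28, limma adjusted p = 0.00138). KCND2 had 0, 2.23 and 0 and was at least 5.91-fold lower, and KCNV1 had the same counts and was at least 2.77-fold lower. All 3 of the members at the floor had at most 3 reads in every SWP library, all of them in replicate 2.

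KCNH3 had 121, 208 and 134 normalized counts in MYC WT and 39.0, 92.1 and 69.2 in SWP, without overlap. The log2 fold change was -1.24 (SE 0.29, limma adjusted p = 0.0197), and the call was lost without MYC WT replicate 2 (adjusted p = 0.0739) or replicate 3 (0.0524), without the trend (0.0535) and with only these lines in the fit (0.0632), over a range of 0.00036 to 0.0739 in all settings tried. KCNB2, the Kv2.2 delayed rectifier, had 274, 246 and 254 in MYC WT and 105.4, 122 and 137 in SWP. Its groups were tight, with a log2 fold change of -1.09 (SE 0.13, limma adjusted p = 0.000417). KCNH4 fell by 0.90 (limma adjusted p = 0.0286), KCNN1 by 0.78 (limma adjusted p = 0.00718) and KCNIP3 by 0.75 (limma adjusted p = 0.00288).

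KCNH2 and KCNJ11 were among the 3 members called higher. KCNH2 had 282, 462 and 530 normalized counts in SWP against 181 to 205 in MYC WT, with a log2 fold change of 1.07 (SE 0.19, limma adjusted p = 0.00493). KCNJ11 had 1036, 982 and 974 in MYC WT and 1310, 1546 and 1824 in SWP, a log2 fold change of 0.63 (SE 0.11, limma adjusted p = 0.00375). SWP replicate 1 was the lowest of its line for both, and no SWP library overlapped MYC WT. For KCNC1 and KCNA2 the log2 fold changes were 0.01 (SE 0.15, limma adjusted p = 0.971) and -0.48 (SE 0.48, limma adjusted p = 0.611).

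**Figure D4:**
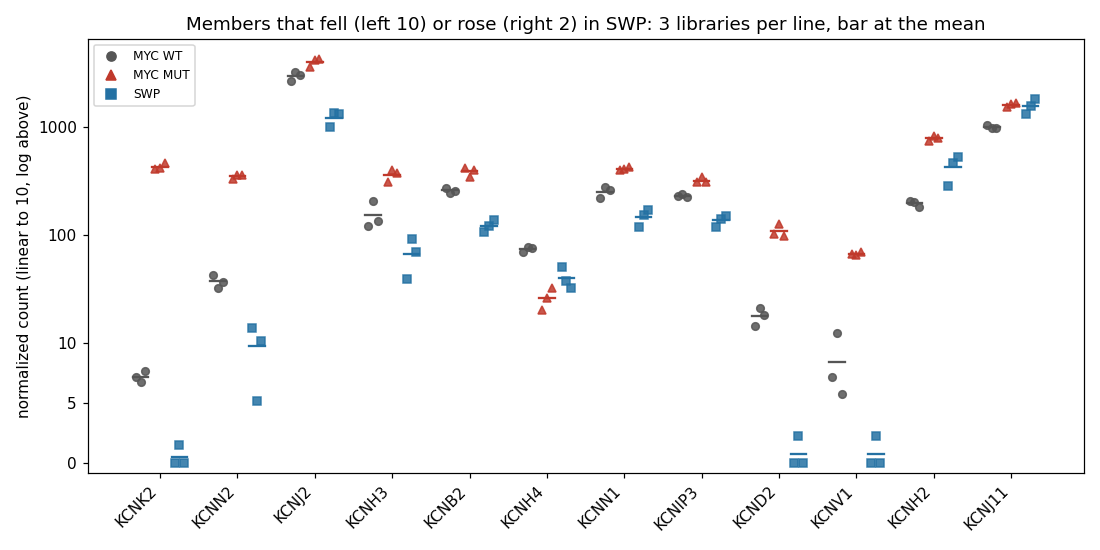
Normalized counts in each of the 9 libraries for the 10 members called lower and 2 of the 3 called higher in SWP against MYC WT, in MYC WT (grey circles), MYC MUT (red triangles) and SWP (blue squares). The axis is linear to 10 and logarithmic above, and a bar marks the mean of 3 libraries. KCNK2, KCND2 and KCNV1 are at 0 in 2 of 3 SWP libraries, and KCNJ2 is at 1211 on average against 2969 in MYC WT.

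The edited lines were compared directly to see which members differ between a MYC promoter without a G4 and one with another G4. In MYC MUT against SWP, 33 of the 53 tested members were called higher and 2 lower, where 12.3% of all tested genes were called higher and 8.31% lower. The median log2 fold change was 1.06, and 0.044 over all tested genes, and that of the members was 0.64 with all genes with any count in the fit. Without the 6 members that passed through MYC MUT alone, 27 of 47 were called higher and 2 lower, with a median of 0.94. By class the higher calls were 16 of 22 Kv pore-forming genes, 3 of 5 modifiers, 2 of 5 accessory genes, 3 of 8 inward rectifiers, 4 of 6 2-pore genes and 5 of 7 calcium- or sodium-activated genes, and without those 6 they were 13 of 19, 2 of 4, 2 of 5, 2 of 7, 3 of 5 and 5 of 7. KCNK2 was at least 141-fold higher in MYC MUT, KCNA1 at least 39.7-fold, KCND2 at least 35.9-fold and KCNV1 at least 22.1-fold. KCNAB2 was among the 2 members called lower (log2 fold change -0.65, SE 0.15, limma adjusted p = 0.00611). KCNJ11, called higher in both lines against MYC WT, had a difference of 0.05 between them, with a 95% interval from -0.18 to 0.29. With the replicate number as a block, KCNQ1 was called higher as well (log2 fold change 0.60, limma adjusted p = 0.0253, against 0.119 without it). KCNH2 was also higher in MYC MUT than in SWP (log2 fold change 0.93, SE 0.19, limma adjusted p = 0.00295).

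Summed over all members of a class, mean levels per kb were highest in MYC MUT in 5 of 6 classes, the accessory class being the exception. Kv pore-forming genes summed to 657 ± 37.4 (SD, n = 3) normalized counts per kb in MYC WT, 1162 ± 55.5 (SD, n = 3) in MYC MUT and 686 ± 72.3 (SD, n = 3) in SWP. The 2-pore genes summed to 520 ± 25.2, 884 ± 29.1 and 518 ± 52.8 (SD, n = 3 each), and inward rectifiers to 1661 ± 43.1, 2112 ± 100.6 and 1533 ± 115 (SD, n = 3 each). For these 3 classes every MYC MUT library lay above every library of the other lines, which 3 libraries against 3 can show with an exact permutation p of no less than 0.1. Accessory genes summed to 152 ± 9.39 in MYC WT and 138 ± 11.8 in MYC MUT (SD, n = 3 each), and their libraries met without overlap, from 145 upward in MYC WT and up to 144.7 in MYC MUT. All 96 genes together summed to 3999 ± 33.1, 5454 ± 254 and 3724 ± 370 (SD, n = 3 each). SWP replicate 1 had the lowest sum of the 9 libraries, at 3327.

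**Figure D5:**
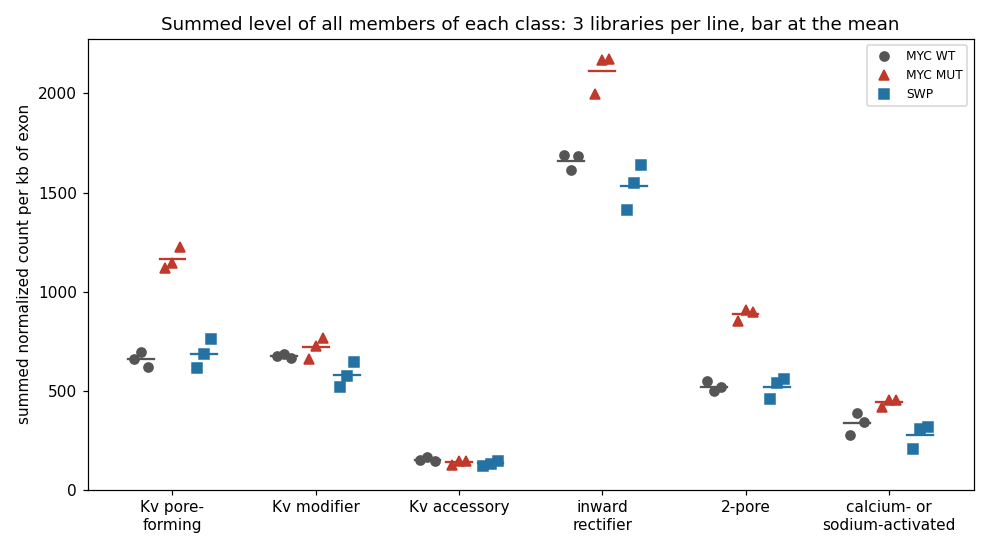
Summed normalized counts per kb of exon over all members of each class in each library, in MYC WT (grey circles), MYC MUT (red triangles) and SWP (blue squares), with a bar at the mean of 3 libraries. Kv pore-forming genes are at 1162 on average in MYC MUT and at 657 in MYC WT, and accessory genes at 138 and 152.

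Genes that work with these channels were taken from 2 lists. Of 20 listed channel partners 14 were tested, with 2 called higher and 3 lower in MYC MUT against MYC WT and 1 called higher in SWP. Over all tested genes 11.3% were called higher and 10.1% lower in MYC MUT, and 2.15% and 2.98% in SWP, so that the partners in MYC MUT were near these shares. LRRC26, an accessory protein of BK channels, had a log2 fold change of 2.05 in MYC MUT (SE 0.21, limma adjusted p = 2.84e-05) and of 1.77 in SWP (SE 0.21, limma adjusted p = 0.000303). DLG4, the scaffold that binds Kv1 channels, rose by 0.51 (limma adjusted p = 0.00811), and ANK3 and LGI1 fell by 0.55 and 1.51 in MYC MUT. ABCC8, the sulfonylurea receptor that KCNJ11 needs at the membrane, had log2 fold changes of 0.05 and -0.52 in MYC MUT and SWP (limma adjusted p = 0.893 and 0.201). Of 17 listed genes of potassium transport and pacemaker current 13 were tested, with 3 called higher and 0 lower in MYC MUT and 0 higher and 2 lower in SWP, beside the same shares over all tested genes. HCN4 and HCN2, channels of the pacemaker current, rose by 1.67 and 0.71 in MYC MUT, and SLC12A5, the neuronal potassium-chloride exporter, by 0.82. HCN2 fell by 0.57 in SWP. Between MYC MUT and SWP, 2 partners were called higher and 2 lower, and 6 transport genes higher and 0 lower.

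Members below the minimum hold little. The means of 4 of them reached 10 in some line, KCNK12 and KCNG2 in MYC MUT, KCNK9 in MYC WT and KCNE5 in MYC WT and SWP. KCNK10 (TREK-2), the closest relative of KCNK2, had at most 1 read in MYC WT and 4.62, 14.6 and 6.82 normalized counts in MYC MUT, at least 2.79-fold higher. KCNA5, KCNA6, KCNA10, KCNJ6, KCNK16, KCNMB1 and KCNV2 had no read in the 9 libraries, which at this depth allows at most 3 reads per library and does not show that they are silent.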

How the data were processed

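Poly(A) RNA libraries of 3 HEK293T lines were sequenced, 3 libraries each. Other assays among the 213 listed samples were not analysed here. According to the methods and the submitters' processing notes, the authors aligned reads with BWA 0.7.17-r2188 to hg38, marked duplicates, counted reads per GENCODE gene and divided counts by DESeq2 size factors. The aligner does not split reads across splice junctions, so reads over exon joins may be lost, and the counting tool and its use of strand are not given in the sources used here. The deposited values are therefore a signal, normalized read counts, and every positive value was a whole multiple of 1 step per library (tolerance 0.01 reads), which gave back the reads.

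Symbols came from GENCODE, in which 57754 of 58336 identifiers matched. Genes with a mean of at least 10 were tested with limma 3.58.1 (R 4.3.3, trend, all 9 libraries in 1 fit) on log2(value + 1), with Benjamini-Hochberg adjustment. Scripts were tested on simulated data. Full values are given for called members with a mean of at least 50 (the 10 largest rises and up to 8 largest falls in MYC MUT, up to 5 of each in SWP), the 5 highest per kb in MYC WT, and KCNC1, KCNA2 and KCNK2. Other members are named by class. Some of these genes, and the origin of the G4 placed in SWP cells, are not reported here. Alternatives were count models (DESeq2 1.42.0, edgeR 4.0.16) of those reads, other scalings, filters, pseudocounts and thresholds, and each library left out. The members and lists were chosen with earlier results of these data known.

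Replicate numbers were checked by correlating deviations from line means between same-numbered libraries. These were 0.555, 0.4034 and 0.1018 for MYC WT with SWP and 0.3334, 0.241 and 0.2318 for MYC MUT with SWP, taken as paired, and 0.3281, 0.1461 and 0.049 for MYC WT with MYC MUT, not paired. Libraries of 1 line differed by more than counting noise (chi-square per degree of freedom 8.317 to 55.65). A floor of 3 reads per library stands for lines with at most 3 reads, and floors and depth cover counting error only.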

Additional observations from a re-analysis of the deposited data

Results flagged for a closer look

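Against MYC WT, 7 members were called higher in MYC MUT and lower in SWP. As they were chosen for these directions against the same MYC WT libraries, their differences between the edited lines follow from the choice and are given as values. KCNK2 was at least 141-fold higher in MYC MUT than in SWP, KCND2 at least 35.9-fold and KCNV1 at least 22.1-fold, with SWP at the floor of 3 reads per library. KCNN2 differed by 5.11 on the log2 scale, KCNH3 by 2.49, KCNB2 by 1.67 and KCNN1 by 1.49. KCNK2 and KCNV1 reached the minimum for testing through MYC MUT alone.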

How the results depend on the processing

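The counts of members called higher in MYC MUT stayed within 1.5 times under every alternative run, and edgeR called 26 higher and 2 lower there, as did DESeq2. The median in MYC MUT against MYC WT was 0.3941 with all genes with any count. That of MYC MUT against SWP was 0.6414 with all genes with any count, 0.9553 at a minimum mean of 50, and 0.9684 to 1.1131 with each library left out. Small counts moved with the thresholds. Members called lower in MYC MUT against MYC WT were 1 at a minimum mean of 50, 5 without a fold threshold and 1 at a fold threshold of 1. Members called higher in SWP against MYC WT were 1 at a fold threshold of 1, and those called lower in MYC MUT against SWP were 4 without a fold threshold and 1 at a threshold of 1. Some changes in SWP against MYC WT that were not called crossed 0 with a library left out. That of KCNA2 ranged from -0.9927 to 0.1355, that of KCNC1 from -0.0875 to 0.137 and that of KCNJ12 from -0.1548 to 0.0143. Of 620 values of single members under the alternatives, 605 kept direction and side of the threshold, 6 lost the call, 4 gained it and 5 changed sign. KCNJ2 and KCNJ8 passed the fold threshold in MYC MUT with equal totals, and without MYC MUT replicate 1 (0.51) and MYC WT replicate 1 (0.52). The cause was not tested.

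With the replicate block, calls in MYC MUT against MYC WT were 27 higher and 3 lower, where the lines share only numbers. In SWP against MYC WT they were 4 and 14, and in MYC MUT against SWP 34 and 2. Beyond the members given with the results, KCNJ14 and KCNJ3 passed in MYC MUT against MYC WT (limma adjusted p = 0.024 and 0.0259), and no call was lost. Members with few reads are limited by depth, and their folds are bounds.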

Other observations

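KCNA genes lie in clusters in which neighbours differed. On chromosome 1, KCNA10 had no read in the 9 libraries, while KCNA2 and KCNA3 beside it were called higher in MYC MUT. On chromosome 12, KCNA5 and KCNA6 had no read on either side of KCNA1, which was called higher.

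KCNJ11 and KCNC1 both lie on the short arm of chromosome 11 and were both called higher in MYC MUT. In SWP, KCNJ11 was called higher, with a log2 fold change of 0.63, and KCNC1 had one of 0.01.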
